A study of Mus musculus with 18 samples.

Results

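The effect of the dietary folic acid (FA) dose on gene expression in non-dysplastic colonic epithelium was described across all genes. The members were 9 of the 18 RNA-Seq libraries of the series, chosen by their titles: 5 libraries of non-dysplastic epithelium from mice fed 8 mg/kg FA (8ND 1 to 8ND 5) and 4 from mice fed 0 mg/kg FA (0ND 1 to 0ND 4). The other 9 libraries, from polypoid dysplasia at the same doses (8P and 0P), were used to estimate the spread, to choose genes that mark dysplasia and to show where the non-dysplastic epithelium differed.

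The mice were female Swiss Webster, an outbred stock. All of them received azoxymethane (AOM, a colon carcinogen) at 7 weeks of age. All then drank 2% dextran sulfate sodium (DSS, an irritant that induces colitis) in 4 cycles from 9 weeks, each of 7 days on DSS and 14 days on plain water. Every mouse ate the basal 2 mg/kg FA chow first, and from 11 weeks either 0 or 8 mg/kg FA for 16 weeks, until tissue was taken at 27 weeks. Laser microdissection (LMD) was used to collect the epithelium from fixed and embedded colon, and 40 ng of total RNA went into each stranded library. The comparison therefore set 8 mg/kg against 0 mg/kg, both in carcinogen-treated colitic colon, with no library on the basal dose. The labels did not say whether the libraries were from separate mice, so the p-values below measure only the spread between these libraries, which may be technical. The time of day of tissue collection was not given in the sources used here.

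Folate carries the one-carbon units used to make purines and thymidylate and to remake methionine, the precursor of the methyl donor S-adenosylmethionine. Mammals take it from the diet and from gut microbes. The colonic epithelium renews itself from Wnt-dependent stem cells at the crypt base, and its absorptive cells higher in the crypt carry ion exchangers, drug-metabolizing enzymes and efflux pumps. Its cells also run a local circadian clock, in which the activators CLOCK and BMAL1 bind E-box sequences and drive their own repressors and a set of output genes. When amino acids run short or the mitochondria are under stress, translation of the transcription factor ATF4 rises and turns on genes for amino acid synthesis and uptake.

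Library depth ranged from 3500947 gene counts in 8ND 4 to 14593288 in 0ND 1. The epithelial markers Epcam, Cdh1 and Krt8 were abundant in both groups. Epcam was at 692.5 CPM (counts scaled to the size of each library) on average in 0ND and at 640.0 CPM on average in 8ND, and none of the 13 tested epithelial markers differed at an unadjusted p under 0.05. RNA of other cell types was present in every library. The summed smooth muscle markers ranged from 1998 to 4714 CPM in 0ND and from 2021 to 3231 CPM in 8ND, and the summed B and plasma cell markers from 2960 to 5288 CPM in 0ND and from 4138 to 10202 CPM in 8ND, highest in 8ND 3. The summed fibroblast and matrix markers were at 2175 ± 114 CPM (SD, n = 4) in the 0ND libraries and 2602 ± 182 CPM (SD, n = 5) in the 8ND libraries, without overlap. The summed absorptive cell markers averaged 7235 CPM at 0 mg/kg and 5468 CPM at 8 mg/kg, also without overlap. Both of these differences had p = 0.00794, the smallest that the exact two-sided permutation test of 4 against 5 libraries can give, and 0.111 after Benjamini-Hochberg adjustment over the 28 measures tested. The sums were scaled to total gene counts alone, without the TMM factors used for single genes. These factors were 1.08 in 0ND 1, 0.899 in 0ND 2, 1.11 in 8ND 2 and 0.930 in 8ND 3. With them the groups overlapped in both sums. For the absorptive cell markers 8ND 3 was above 0ND 1, and for the fibroblast and matrix markers 0ND 2 was above 8ND 2. In bulk libraries, fewer cells of a type and less RNA per cell cannot be told apart, and the part of these markers in the gene results below was not tested.

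The 5 8ND libraries were not alike. Their position was read from genes chosen without the library in question, at an unadjusted edgeR p under 0.01, on a scale from 0 (the 0ND mean) to 1 (the 8ND mean), each taken without that library. For genes higher in 8ND, the median position was 1.15 in 8ND 1, 1.14 in 8ND 2, 0.83 in 8ND 4 and 0.80 in 8ND 5, but 0.25 in 8ND 3. The 0ND libraries, placed in the same way, lay between -0.04 and 0.40, so 8ND 3 fell inside their range. For genes lower in 8ND, 8ND 3 was at 0.57 and the other 8ND libraries were between 0.63 and 0.94, with 0ND 1 the highest of the 0ND libraries at 0.60. The library 8ND 3 thus stood apart from the other 8ND libraries mainly in the genes with higher expression.

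A second reading used 166 genes that mark dysplasia in mice fed no FA. They were higher in every 0P library than in any 0ND library, by at least 3 on the log2 scale on average, and averaged at least 10 CPM in 0P. Their median level lay 21.5% of the way from the 0ND mean to the 0P mean in 8ND 1 and 16.9% of the way in 8ND 2. It lay at 8.19% in 8ND 4 and 7.77% in 8ND 5. In 8ND 3 it was at -0.160%, within the range of -1.59% to 0.854% of the 0ND libraries, which define the zero point. Summed over the 166 genes, the level was 469 to 809 CPM in 0ND, 4967 CPM in 8ND 1, 3392 CPM in 8ND 2, 1071 CPM in 8ND 3, 1990.3 CPM in 8ND 4 and 2015 CPM in 8ND 5, against 9124 to 17876 CPM in the dysplasia libraries. The set held Cers3, Dyrk3 and Pla2g2a, 11 of the 29 tested Wnt targets, 5 Paneth-like genes and 5 stem cell genes, and 0 of the clock, ATF4 or cholesterol genes described below.

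**Figure D1:**
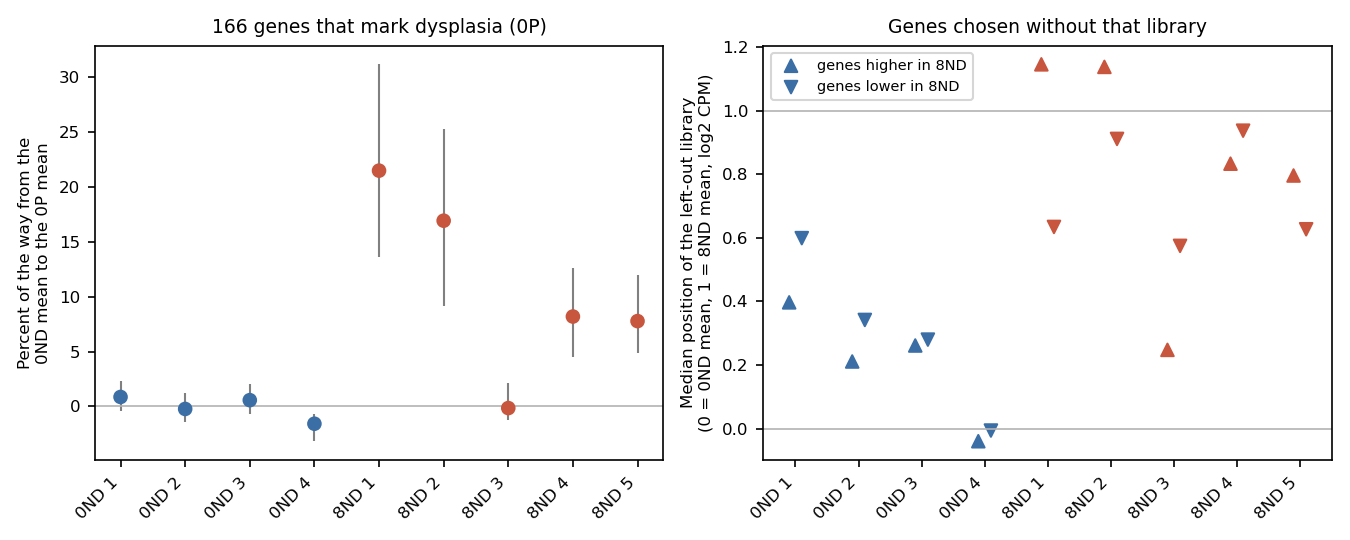
Left, the median percent of the way from the 0ND mean to the 0P mean over 166 dysplasia-marking genes in each non-dysplastic library, with lines from the lower to the upper quartile over genes. Right, the median position of each library, in log2 CPM, for genes chosen without it, where 0 is the 0ND mean and 1 the 8ND mean, with upward triangles for genes higher in 8ND and downward triangles for genes lower. 8ND 1 and 8ND 2 lie highest in the left panel at 21.5% and 16.9%, while 8ND 3 lies among the 0ND libraries there and at 0.25 for the higher genes on the right.

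Of 20787 genes tested with edgeR, 10 passed an adjusted p of 0.05 (0.0481%), 6 higher in 8ND (0.0289%) and 4 lower (0.0192%). At an unadjusted p under 0.05, 1180 genes were higher (5.68%) and 879 lower (4.23%), 2059 in all (9.91%). The groups did not overlap for 446 genes higher in 8ND (2.15%) and 374 genes lower (1.8%), 820 in all (3.94%). Without 8ND 3 the count of called genes was 157 of 20823 (0.754%), 134 higher and 23 lower, and all 10 genes were among them. In 8ND 3 itself, which had no part in choosing them, the median position of the 134 higher genes was 0.07 and that of the 23 lower genes 0.55. Leaving out any other library gave 2 (0ND 4, 8ND 1 or 8ND 2), 4 (0ND 3), 5 (0ND 2), 6 (8ND 4), 11 (8ND 5) or 18 genes (0ND 1). DESeq2 on the same libraries called 316 of 17960 genes (1.76%).

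The 6 genes that rose in 8ND have roles in membrane lipids, the cell cortex and signaling. Cers3 encodes the ceramide synthase that makes ceramides with very long acyl chains, best known from the skin barrier. It was at 0.382, 0.353, 0.7104 and 0.108 CPM in 0ND 1 to 4 and at 3.59, 3.25, 2.79, 2.67 and 2.47 CPM in 8ND 1 to 5. The groups did not overlap, the 8ND libraries were close together, and 8ND 3 lay in the middle of them. These levels rested on few reads, 15 in all of 0ND and 127 in all of 8ND. The log2 fold change was 2.91 ± 0.40 (SE; edgeR adjusted p = 0.0071). The mean in 0P was 11.0 CPM, above every non-dysplastic library.

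Pla2g2a, a secreted phospholipase A2 of Paneth cells, was at 141, 125, 95.3 and 40.5 CPM in 0ND 1 to 4 and at 1187, 631, 480.4, 396 and 341 CPM in 8ND 1 to 5. Every 8ND library was above every 0ND library, and 8ND 1 stood well above the other 8ND libraries. The gene (chr4:138831857-138835186 in mm10) is annotated as a polymorphic pseudogene, since some mouse strains carry a disrupted copy. Its log2 fold change was 2.60 ± 0.42 (SE; edgeR adjusted p = 0.033). The mean in 0P was 2577 CPM, so 8ND 1 was still below the dysplasia.

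Dyrk3, a kinase that dissolves cellular condensates, was at 0.574, 0.705, 0.474 and 0.758 CPM in 0ND and at 4.70, 2.77, 1.07, 1.87 and 2.26 CPM in 8ND. All 8ND libraries were higher than all 0ND libraries, with 8ND 3 the nearest to them. Its log2 fold change was 2.02 ± 0.36 (SE; edgeR adjusted p = 0.038).

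Pmepa1, which is induced by TGF-beta and dampens its signal, was at 73.7, 58.5, 86.3 and 71.0 CPM in 0ND and at 184, 166, 99.3, 124 and 124 CPM in 8ND. The highest 0ND library and 8ND 3 were close, and 8ND 1 and 8ND 2 were the highest. The log2 fold change was 0.95 ± 0.16 (SE; edgeR adjusted p = 0.026).

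A further pair of genes has products at the plasma membrane and the cell cortex. Myof encodes myoferlin, a membrane repair and fusion protein, and was at 71.9, 80.1, 64.9 and 71.0 CPM in 0ND and at 143, 131, 108, 128 and 104 CPM in 8ND. Phldb2 encodes a protein that anchors microtubules near focal adhesions, and was at 35.5, 35.3, 30.8 and 27.4 CPM in 0ND and at 56.7, 56.9, 47.1, 57.1 and 52.2 CPM in 8ND. Both genes differed by less than 1 on the log2 scale, but the groups were well apart. The log2 fold change was 0.77 ± 0.13 (SE; edgeR adjusted p = 0.038) for Myof and 0.74 ± 0.11 (SE; edgeR adjusted p = 0.011) for Phldb2. Of the 25 tested genes of membrane repair and the cell cortex, 2 were called higher (against 0.0289% of all genes) and 0 lower (against 0.0192%). The 2 were Myof and Phldb2 themselves, so the count adds nothing to their own results. The median log2 fold change of the list was 0.08 against 0.00 over all genes.

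The 4 genes that fell in 8ND were Slc37a2, Per3, Kyat1 and H2-T-ps. Slc37a2, a sugar phosphate transporter of the endoplasmic reticulum, was at 89.3, 119, 81.5 and 191 CPM in 0ND 1 to 4 and at 28.5, 18.6, 40.0, 13.6 and 21.9 CPM in 8ND 1 to 5. The highest 8ND library, 8ND 3, was well below the lowest 0ND library. The log2 fold change was -2.28 ± 0.30 (SE; edgeR adjusted p = 0.0071). The mean was 16.2 CPM in 0P and 12.8 CPM in 8P.

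Kyat1, an aminotransferase that converts kynurenine to kynurenic acid and acts on glutamine, was at 14.3, 18.2, 28.1 and 28.2 CPM in 0ND and at 10.4, 8.16, 8.91, 5.34 and 9.66 CPM in 8ND. The gap between 0ND 1 and 8ND 1 was small, and 0ND 3 and 0ND 4 were the highest. The log2 fold change was -1.37 ± 0.23 (SE; edgeR adjusted p = 0.026). H2-T-ps, an MHC class I pseudogene whose reads can be split with its near-identical neighbours, was at 5.67, 5.11, 2.13 and 4.01 CPM in 0ND and at 1.52, 0.396, 0.644, 1.33 and 1.03 CPM in 8ND. The groups did not overlap, and its log2 fold change was -2.18 ± 0.39 (SE; edgeR adjusted p = 0.043). When each of the 9 libraries was left out in turn, Cers3 and Slc37a2 were called every time, and the remaining 8 genes between 1 and 5 times. Neither held everywhere: Slc37a2 was not called in the 9 non-dysplastic libraries alone, Cers3 was not called by limma-voom, and neither was called without both 8ND 1 and 8ND 2, when 0 genes were called by edgeR and 1437 had an unadjusted p under 0.05.

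**Figure D2:**
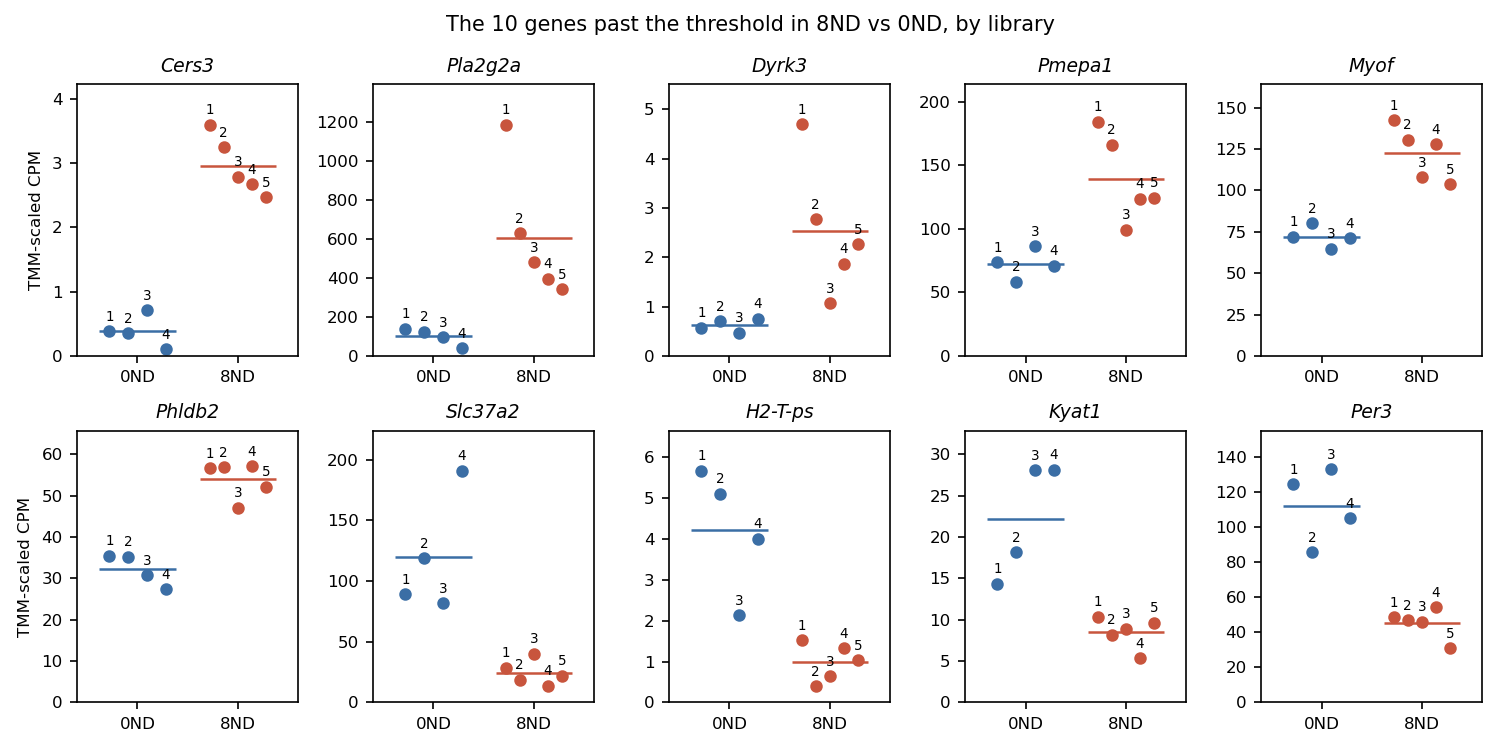
TMM-scaled CPM of the 10 genes past the threshold in each 0ND library (blue) and 8ND library (red), numbered by library, on linear axes from 0, with a line at each group's mean. No 8ND point reaches the 0ND points in any panel, and 8ND 3 is the lowest 8ND library for Pmepa1, Dyrk3 and Phldb2 but not for Cers3 or Pla2g2a.

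Of the 51 gene lists, the circadian clock had the most members that were lower in 8ND without overlap. Per3, a member of the period family that forms the repressor arm of the clock, was at 124, 85.9, 133 and 105 CPM in 0ND 1 to 4 and at 48.7, 46.9, 46.0, 54.5 and 30.9 CPM in 8ND 1 to 5. No 8ND library came near the lowest 0ND library, and 8ND 3 was like the others. The log2 fold change was -1.31 ± 0.21 (SE; edgeR adjusted p = 0.026). Of the 25 clock genes tested, Per3 was the only one past the adjusted threshold. At an unadjusted p under 0.05, 10 were lower (against 4.23% of all genes) and 4 higher (against 5.68%). The groups did not overlap for 8 lower clock genes (32%, against 1.8% of all genes) and 2 higher ones (8%, against 2.15%). The median log2 fold change over the 25 was -0.36 against 0.00 over all genes.

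The lower clock genes were mainly repressors and output genes. Ciart, a repressor of CLOCK and BMAL1, was at 3.63, 4.06, 9.83 and 4.87 CPM in 0ND and at 0.830, 1.43, 2.04, 2.40 and 0.719 CPM in 8ND. Its groups did not overlap, and the log2 fold difference was -1.96 ± 0.38 (SE; edgeR adjusted p = 0.059). Dbp, Hlf and Tef encode the 3 related activators that bind D-box sequences in clock output genes. Dbp was at 25.4, 42.9, 55.1 and 42.8 CPM in 0ND and at 7.74, 8.08, 20.2, 22.4 and 3.80 CPM in 8ND, with a log2 fold difference of -1.77 ± 0.43 (SE; edgeR adjusted p = 0.12). Hlf was at 15.5, 20.3, 22.7 and 12.2 CPM in 0ND and at 7.05, 6.02, 4.83, 9.88 and 5.96 CPM in 8ND, with a log2 fold difference of -1.41 ± 0.35 (SE; edgeR adjusted p = 0.12). Every 8ND library was below every 0ND library for both, and the lowest Dbp level was in 8ND 5.

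The next genes were chosen after their values were seen. Tef was at 135, 91.5, 129 and 120.4 CPM in 0ND and at 52.0, 56.1, 62.9, 80.6 and 33.6 CPM in 8ND. Nr1d2, which encodes the repressor REV-ERB beta, was at 159.6, 139.8, 196 and 169 CPM in 0ND and at 68.7, 65.3, 100.03, 122 and 33.2 CPM in 8ND. For both genes the groups did not overlap, 8ND 4 was the nearest to 0ND and 8ND 5 the farthest. The log2 fold difference was -1.07 ± 0.24 (SE; edgeR adjusted p = 0.085) for Tef and -1.10 ± 0.26 (SE; edgeR adjusted p = 0.11) for Nr1d2.

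Both higher genes without overlap are known to peak at about the opposite time of day to Dbp and Per3. Nfil3, a repressor that competes for D-box sequences, was at 2.55, 3.17, 2.01 and 1.84 CPM in 0ND and at 6.64, 8.01, 3.43, 4.00 and 7.50 CPM in 8ND, with a log2 fold difference of 1.34 ± 0.30 (SE; edgeR adjusted p = 0.085). Arntl, which encodes BMAL1 and was also chosen after its values were seen, was at 22.9, 28.7, 19.9 and 30.3 CPM in 0ND and at 48.1, 42.0, 32.3, 31.2 and 70.4 CPM in 8ND. Its lowest 8ND library, 8ND 4, was just above the highest 0ND library, and 8ND 5 was the highest of all. The library order within 8ND was thus nearly reversed between Arntl and Nr1d2, with 8ND 5 at the far end of both.

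**Figure D3:**
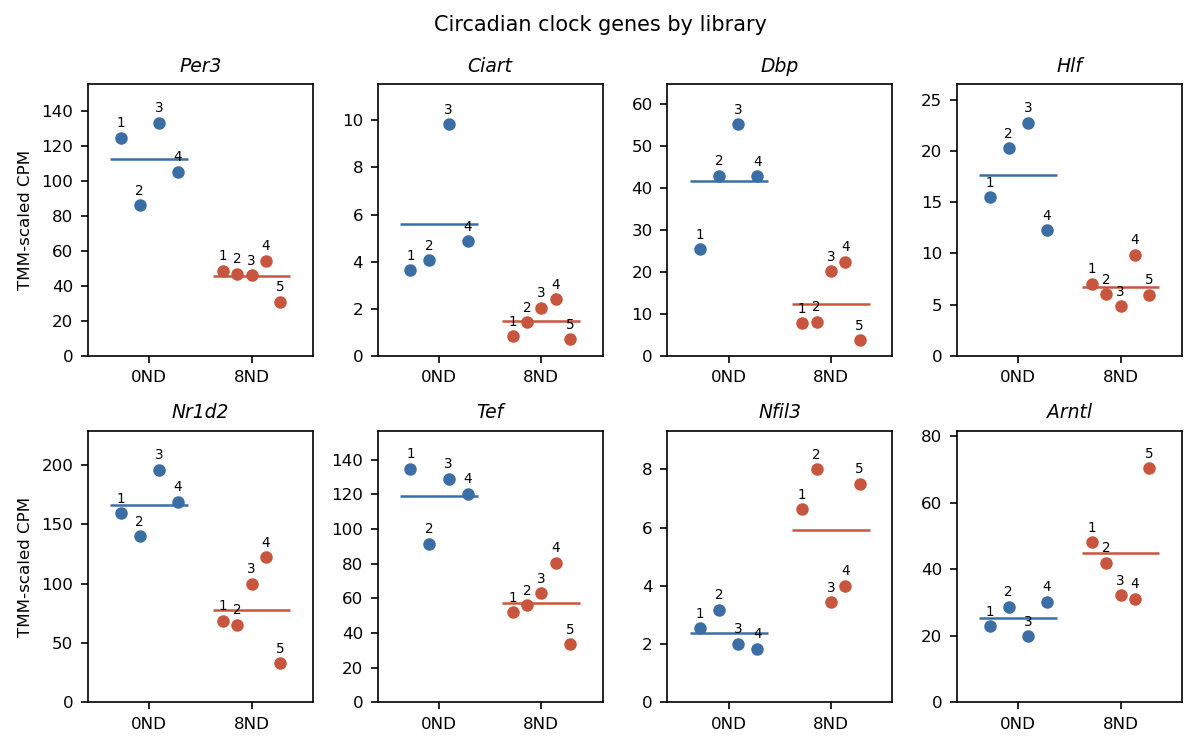
TMM-scaled CPM of 8 circadian clock genes in each 0ND library (blue) and 8ND library (red), numbered by library, on linear axes from 0, with a line at each group's mean. Per3, Ciart, Dbp, Hlf, Nr1d2 and Tef are lower in every 8ND library and Nfil3 and Arntl higher, and 8ND 5 is the farthest from 0ND for Per3, Ciart, Dbp, Nr1d2, Tef and Arntl.

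The class score, the median over members of log2 CPM minus the mean of the 9 libraries, ran from 0.02 to 0.24 in 0ND and from -0.26 to -0.03 in 8ND, without overlap. The lowest was 8ND 3, the library that resembled 0ND in the dysplasia-marking genes. Below the range of all 4 0ND libraries were 12, 11, 15, 13 and 10 of the 25 clock genes in 8ND 1 to 5, against 19.2, 23.5, 23, 28.5 and 15.9% of all genes. Without 8ND 3 the median was -0.37 and 4 clock genes were called, Per3, Nfil3, Ciart and Dbp (against 0.754% of all genes).

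The sequences just before the RefSeq transcription start (build GRCm38.p6, minus strand in all cases) are shown for Per3 and Ciart because their promoters hold several matches to clock elements. Capitals mark the D-box letters TTATGTAA in Per3 (chr4:151044796-151044890, 225 to 131 bases before the start) and the E-box letters CACGTG in Ciart (chr3:95882247-95882364, 136 to 19 bases before the start).
Per3: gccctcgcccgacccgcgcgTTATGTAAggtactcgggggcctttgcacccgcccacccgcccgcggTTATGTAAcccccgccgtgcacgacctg
Ciart: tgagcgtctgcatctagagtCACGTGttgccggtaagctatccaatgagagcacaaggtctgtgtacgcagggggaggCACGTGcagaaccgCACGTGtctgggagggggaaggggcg
The 2 matches in Per3 began 205 and 158 bases before the start and the 3 in Ciart 116, 58 and 44 bases before it. Over the windows of 250 bases before to 50 after the start of 27025 genes, searched on both strands, 1.11% held the D-box letters and 0.0259% held them at least 2 times. The E-box letters stood in 8.09% and at least 3 times in 0.0925%. Of the 25 clock genes, 20 had a promoter in the table, and the E-box letters were in 5 of them (Per1, Cry1, Tef, Bhlhe41 and Ciart) and the D-box letters in 1 (Per3). A match of letters is a description and no evidence of binding.

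Genes of the ATF4 and amino acid stress program were higher in 8ND, without any of them passing the adjusted threshold. Of the 38 tested, 19 were higher at an unadjusted p under 0.05 (against 5.68% of all genes) and 0 lower (against 4.23%). Without overlap 11 were higher (against 2.15%), and the median log2 fold change was 0.36. The same shares of all genes, with 1.8% lower without overlap, apply to the lists below. Pycr1, which makes proline in mitochondria, was at 3.82, 4.76, 4.03 and 2.92 CPM in 0ND and at 15.9, 16.6, 8.48, 16.3 and 13.4 CPM in 8ND, with a log2 fold difference of 1.87 ± 0.38 (SE; edgeR adjusted p = 0.075). Slc1a4, a carrier of alanine, serine and cysteine, was at 19.2, 18.7, 20.4 and 12.3 CPM in 0ND and at 30.3, 35.4, 31.8, 49.1 and 29.0 CPM in 8ND, with a log2 fold difference of 0.98 ± 0.21 (SE; edgeR adjusted p = 0.078). Each of these 2 genes was higher in every 8ND library, 8ND 3 included.

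Asns, which makes asparagine and is a well-known ATF4 target, was at 11.5, 11.99, 11.8 and 8.45 CPM in 0ND and at 20.6, 17.4, 22.4, 19.0 and 18.3 CPM in 8ND. The 8ND libraries were tight, and the highest was 8ND 3. The log2 fold difference was 0.84 ± 0.19 (SE; edgeR adjusted p = 0.087). Nupr1, a stress-induced chromatin protein, and Stc2, a secreted glycoprotein, were chosen after their values were seen. Nupr1 was at 38.04, 27.9, 30.9 and 30.3 CPM in 0ND and at 51.4, 43.2, 51.3, 55.5 and 79.1 CPM in 8ND. Stc2 was at 13.5, 10.9, 9.95 and 11.5 CPM in 0ND and at 24.9, 16.0, 12.8, 23.2 and 20.96 CPM in 8ND, where 8ND 3 lay inside the 0ND range.

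In contrast to the dysplasia-marking genes, the ATF4 list did not set 8ND 3 apart. Its score ran from -0.23 to -0.11 in 0ND and was 0.29, 0.04, 0.28, 0.11 and 0.19 in 8ND 1 to 5, all above 0ND. Above the range of all 4 0ND libraries were 28, 18, 25, 21 and 22 of the 38 genes in 8ND 1 to 5, against 22.9, 25.8, 18.8, 25.4 and 20.6% of all genes. Leaving out 8ND 3 gave a median of 0.35, and leaving out 8ND 1 together with 8ND 2 gave 0.37.

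Asns and Pycr1 are shown for the ATF4 element letters TGATGNAA, in capitals, read from the same RefSeq windows (Asns chr6:7693210-7693252 and Pycr1 chr11:120643824-120643871, both minus strand).
Asns: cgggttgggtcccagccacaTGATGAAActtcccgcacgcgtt
Pycr1: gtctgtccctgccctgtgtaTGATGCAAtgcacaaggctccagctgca
The match began 23 bases before the start in Asns and 103 in Pycr1. The letters were in 11 of the 31 ATF4-list promoters in the table (Trib3, Asns, Chac1, Pycr1, Slc7a11, Slc1a4, Vldlr, Nupr1, Aars, Gars and Iars) and in 4.51% of the 27025 genes.

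Cholesterol and fatty acid synthesis genes also lay higher in 8ND, 8ND 3 included. Of 35 tested, 19 were higher at an unadjusted p under 0.05 (against 5.68% of all genes) and 0 lower. Without overlap 6 were higher (against 2.15%), and the median log2 fold change was 0.35. Nsdhl, a demethylating enzyme of cholesterol synthesis, was at 22.8, 18.9, 26.05 and 16.7 CPM in 0ND and at 30.4, 34.2, 37.2, 26.4 and 27.9 CPM in 8ND. Scd2, a stearoyl-CoA desaturase, was at 555, 523, 715 and 470.3 CPM in 0ND and at 942, 749, 843, 689.5 and 745 CPM in 8ND, where 8ND 4 lay below 0ND 3. Fads1, which desaturates fatty acids on the way to arachidonic acid, was at 21.03, 14.8, 20.4 and 12.02 CPM in 0ND and at 34.7, 42.9, 42.0, 22.96 and 33.1 CPM in 8ND. Nsdhl and Fads1 did not overlap between the groups, and their edgeR adjusted p was 0.13 and 0.18. Above the 0ND range were 26, 20, 23, 16 and 15 of the 35 genes in 8ND 1 to 5. For all genes the shares were 22.9, 25.8, 18.8, 25.4 and 20.6%.

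The unfolded protein response answers misfolded protein in the endoplasmic reticulum. Of its 30 tested genes, 8 were higher at an unadjusted p under 0.05 (against 5.68% of all genes) and 0 lower. Their median log2 fold change was 0.19. Syvn1, a ubiquitin ligase that clears misfolded proteins, was at 24.7, 25.04, 26.6 and 28.9 CPM in 0ND and at 33.3, 35.8, 51.4, 45.1 and 33.1 CPM in 8ND, with the highest level in 8ND 3. Above the 0ND range were 15, 7, 20, 7 and 19 of the 30 genes in 8ND 1 to 5. For all genes the shares were 22.9, 25.8, 18.8, 25.4 and 20.6%. This class was thus the most marked in 8ND 3 and 8ND 5. In 8ND 2 and 8ND 4 its share, 23.3%, was slightly below that of all genes. The summed B and plasma cell markers, secretory cells with a high level of such genes, were also highest in 8ND 3, and their part in this class was not tested.

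Genes of mature absorptive cells lay lower in 8ND by their medians, but the list scores of the groups overlapped. Of 30 absorptive cell genes, 4 were lower (against 4.23% of all genes) and 1 higher (against 5.68%) at an unadjusted p under 0.05. Their median log2 fold change was -0.27, and their score ran from 0.04 to 0.30 in 0ND and from -0.33 to 0.05 in 8ND. Of 37 ion and water transport genes, 9 were lower at an unadjusted p under 0.05 (against 4.23% of all genes). At that p 3 were higher (against 5.68%), and the median log2 fold change was -0.11. The score of this list ran from -0.12 in 0ND 1 to 0.29 in 0ND 4. It was -0.10, -0.14, 0.02, -0.06 and -0.01 in 8ND 1 to 5, so only 8ND 2 was below 0ND 1. Slc26a2, a sulfate carrier of the apical membrane, was at 704, 734, 1165 and 1222 CPM in 0ND and at 457, 486, 463, 564 and 511 CPM in 8ND. All 5 8ND libraries were below the lowest 0ND library and close to each other, while 0ND 3 and 0ND 4 stood above 0ND 1 and 0ND 2. The log2 fold difference was -0.95 ± 0.21 (SE; edgeR adjusted p = 0.085). Nedd4l, a ubiquitin ligase that removes the epithelial sodium channel from the membrane, was at 195, 216, 206 and 230.0 CPM in 0ND and at 140.1, 162, 142, 147 and 174 CPM in 8ND, again without overlap. Its log2 fold difference was -0.47 ± 0.12 (SE; edgeR adjusted p = 0.12). Slc20a1, a phosphate carrier, was at 179, 187, 213 and 442 CPM in 0ND and at 88.8, 109, 144, 109 and 72.5 CPM in 8ND, with 0ND 4 far above the rest.

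The water channel gene Aqp8 and the distal colon proton pump gene Atp12a were chosen after their values were seen. Aqp8 was at 58.6, 55.7, 73.2 and 97.8 CPM in 0ND and at 17.7, 37.8, 38.6, 17.1 and 37.3 CPM in 8ND. Atp12a was at 83.6, 290.3, 304 and 286 CPM in 0ND and at 108, 35.8, 181, 6.67 and 75.3 CPM in 8ND, so that 0ND 1 was below 8ND 1 and 8ND 3. Their edgeR adjusted p was 0.49 and 0.42.

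Of 47 genes of xenobiotic and bile acid handling, 12 were lower at an unadjusted p under 0.05 (against 4.23% of all genes). At that p 2 were higher (against 5.68%), and the median log2 fold change was -0.39. Cyp3a13, a cytochrome P450 of the gut, was at 60.5, 75.1, 72.0 and 91.5 CPM in 0ND and at 39.4, 19.97, 25.1, 27.0 and 46.0 CPM in 8ND. Abcb1a, the P-glycoprotein efflux pump, was at 184, 132, 249 and 261 CPM in 0ND and at 88.4, 82.4, 151, 91.3 and 116 CPM in 8ND. Cyp3a13 did not overlap between the groups, while for Abcb1a 8ND 3 was above 0ND 2. Cyp2d12, one of several close copies whose reads may be split, was at 26.4, 54.1, 54.0 and 61.5 CPM in 0ND and at 16.0, 8.01, 17.4, 3.74 and 20.1 CPM in 8ND, with a log2 fold difference of -1.88 ± 0.39 (SE; edgeR adjusted p = 0.075). Below the 0ND range were 27, 29, 20, 31 and 8 of the 47 genes in 8ND 1 to 5, against 15.9% of all genes in 8ND 5, so this library took little part in the class. The efflux pump gene Abcc2 went the other way, at 3.50, 2.12, 2.60 and 1.08 CPM in 0ND and at 36.1, 17.7, 1.40, 16.8 and 9.66 CPM in 8ND, where 8ND 3 was within the 0ND range. The summed absorptive cell markers, given above, were also lower in every 8ND library when scaled to total gene counts alone, but not with the TMM factors.

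Among secretory lineages, 3 of 21 enteroendocrine genes were lower at an unadjusted p under 0.05 (against 4.23% of all genes) and 0 higher. Their median log2 fold change was -0.41. The list score overlapped, from -0.25 to 0.53 in 0ND and at 0.08, -0.72, 0.12, -0.37 and 0.20 in 8ND 1 to 5. Only 8ND 2 and 8ND 4 lay below the 0ND range. Rfx6, a transcription factor of enteroendocrine cells, was at 2.68, 4.06, 3.55 and 4.33 CPM in 0ND and at 1.94, 1.82, 1.82, 2.40 and 2.26 CPM in 8ND, without overlap (edgeR adjusted p = 0.28). Goblet cell genes lay higher, 5 of 26 at an unadjusted p under 0.05 (against 5.68% of all genes) and 1 lower (against 4.23%). Their median was 0.19. Muc2, the main gel-forming mucin, was at 5899, 3725, 3566 and 3511 CPM in 0ND and at 10425, 6871, 6796, 9423 and 12924 CPM in 8ND (edgeR adjusted p = 0.37). Every 8ND library was above every 0ND library, with 0ND 1 the nearest to them. The summed goblet cell markers, scaled to total gene counts alone, ran from 9509 to 11453 CPM in 0ND and from 13488 to 20594 CPM in 8ND. These sums did not overlap (exact permutation p = 0.0159, 0.148 after adjustment). The list score, a median over the genes, did not separate the groups. It ran from -0.28 to 0.18 in 0ND and was 0.41, -0.33, 0.09, -0.15 and 0.39 in 8ND 1 to 5. The lowest score of the 9 libraries was that of 8ND 2. There 11 of the 26 genes lay below the 0ND range and 4 above it, against 23.5 and 25.8% of all genes.

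Paneth-like genes had a median log2 fold change of 1.90 over 21 tested genes. At an unadjusted p under 0.05, 9 were higher (against 5.68% of all genes) and 0 lower, and Pla2g2a was called. Mmp7, which activates defensins, was at 2.80, 0.353, 1.42 and 0.217 CPM in 0ND and at 35.5, 23.5, 1.82, 6.41 and 8.22 CPM in 8ND (edgeR adjusted p = 0.11). The highest libraries were 8ND 1 and 8ND 2, and 8ND 3 was inside the 0ND range. Ang4, an antimicrobial ribonuclease with close copies, was chosen after its values were seen. It was at 2.17, 2.12, 39.0 and 3.36 CPM in 0ND and at 79.9, 108, 211, 39.5 and 57.0 CPM in 8ND, with its highest level in 8ND 3. Without both 8ND 1 and 8ND 2 the median over the list was 0.63.

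The Wnt target, MAPK target and stem cell lists were also split among the 8ND libraries. Of 29 Wnt targets, 19 were higher at an unadjusted p under 0.05 (against 5.68% of all genes) and 0 lower. The median log2 fold change was 0.63. Without overlap 3 were higher (10.3%, against 2.15% of all genes). Wif1, a secreted Wnt inhibitor, was at 7.90, 2.82, 7.81 and 2.06 CPM in 0ND and at 84.6, 63.9, 3.86, 22.2 and 45.2 CPM in 8ND (edgeR adjusted p = 0.11). Prox1, a transcription factor induced by Wnt in colon tumors, was at 34.2, 24.3, 34.5 and 24.04 CPM in 0ND and at 226, 149, 26.2, 72.6 and 84.1 CPM in 8ND. For both genes 8ND 3 was inside the 0ND range and the other 4 above it. Above the 0ND range were 25, 23, 4, 22 and 22 of the 29 Wnt targets in 8ND 1 to 5, where 4 of 29 is below the 18.8% of all genes above it in 8ND 3. Without 8ND 3, 12 of the Wnt targets were called (against 0.754% of all genes) and the median was 0.77. The library left out was the only 8ND library with a list score inside the 0ND range, so a larger difference follows from leaving it out.

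Of 29 MAPK targets, 12 were higher at an unadjusted p under 0.05 (against 5.68% of all genes) and 0 lower. Their median was 0.37, and 0.58 without 8ND 3. Phlda1, an early response gene, was at 25.5, 25.4, 28.7 and 15.8 CPM in 0ND and at 90.8, 86.0, 24.3, 83.6 and 50.2 CPM in 8ND. Etv5, a transcription factor downstream of ERK, was at 22.9, 12.7, 17.5 and 14.2 CPM in 0ND and at 52.0, 42.5, 19.96, 47.0 and 38.2 CPM in 8ND. Their edgeR adjusted p was 0.075 and 0.12, and in both 8ND 3 was alone among the 8ND libraries in lying within the 0ND range. Of 20 colonic stem cell genes, 9 were higher at an unadjusted p under 0.05 (against 5.68% of all genes) and 0 lower. The RNA-binding stem cell gene Mex3a was at 6.82, 7.05, 7.93 and 5.31 CPM in 0ND and at 39.3, 29.2, 6.87, 17.1 and 11.9 CPM in 8ND. Cd44, a hyaluronan receptor of crypt base cells, was at 132, 67.4, 105 and 72.9 CPM in 0ND and at 148, 209.6, 158, 166 and 141 CPM in 8ND, so it was higher in 8ND 3 too.

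**Figure D4:**
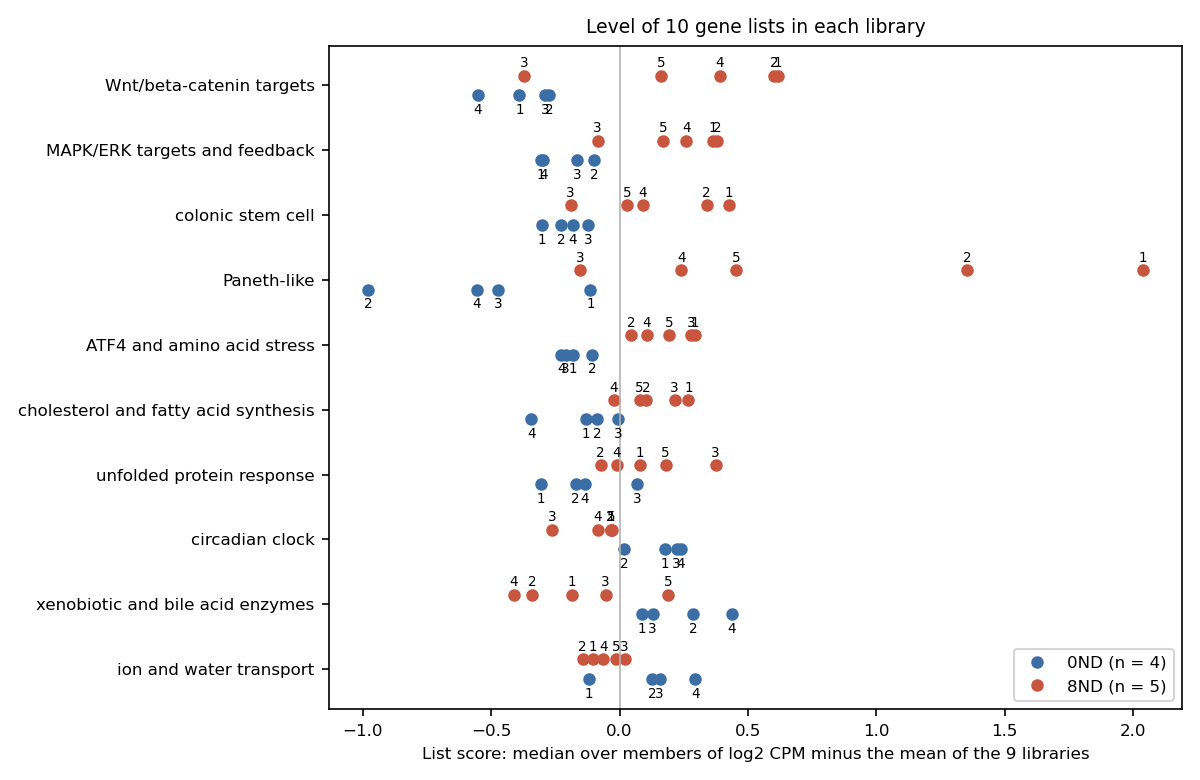
Level of 10 gene lists in each 0ND library (blue) and 8ND library (red), numbered by library, as the median over list members of log2 CPM minus the mean of the 9 libraries. 8ND 3 lies at -0.37 among the 0ND libraries for the Wnt targets but at 0.28 with the other 8ND libraries for the ATF4 list, and it is the lowest library for the circadian clock.

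Genes that handle folate itself differed little in their median. Of 31 folate and one-carbon genes tested, 4 were higher at an unadjusted p under 0.05 (12.9%, against 5.68% of all genes). At that p 1 was lower (3.23%, against 4.23%), and the median log2 fold change was 0.05. Aldh1l2, the mitochondrial enzyme that oxidizes 10-formyltetrahydrofolate and is also an ATF4 target, was at 3.57, 3.35, 3.43 and 1.95 CPM in 0ND and at 6.36, 6.18, 7.19, 7.21 and 6.88 CPM in 8ND. The 8ND libraries were close to each other and all were above 0ND (edgeR adjusted p = 0.11). Pfas, a step of purine synthesis, was at 18.7, 24.2, 20.1 and 19.5 CPM in 0ND and at 29.6, 27.7, 23.5, 29.1 and 28.8 CPM in 8ND. It differed by 0.43 on the log2 scale (edgeR adjusted p = 0.16), and a single 8ND library, 8ND 3, was within the 0ND range.

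The methionine cycle, transsulfuration and polyamine list had 4 of 32 genes higher and 1 lower at an unadjusted p under 0.05. Of all genes, 5.68% were higher and 4.23% lower at that p. Bhmt, which remethylates homocysteine with betaine in place of folate, was at 1.02, 0.353, 0.474 and 0.758 CPM in 0ND and at 1.94, 1.82, 1.18, 1.33 and 1.34 CPM in 8ND. All 8ND libraries were higher, at a level of few reads (edgeR adjusted p = 0.24). Of 27 genes of the DNA methylation machinery, 3 were higher and 0 lower at an unadjusted p under 0.05, with a median of -0.05. Gadd45g, linked to active demethylation, was at 2.04, 2.47, 2.84 and 1.84 CPM in 0ND and at 5.25, 4.12, 4.51, 2.94 and 4.21 CPM in 8ND, without overlap (edgeR adjusted p = 0.18).

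Genes of the inflamed epithelium had 8 of 33 higher and 3 lower at an unadjusted p under 0.05, against 5.68 and 4.23% of all genes. Their median log2 fold change was 0.46. Saa3, an acute phase protein, was at 1.08, 0.705, 1.07 and 0.866 CPM in 0ND and at 4.01, 4.83, 1.82, 5.07 and 6.16 CPM in 8ND. Lcn2, which binds bacterial iron carriers, was at 0.637, 0.705, 0.355 and 0.325 CPM in 0ND and at 5.81, 5.79, 0.859, 3.74 and 2.47 CPM in 8ND. For both the groups did not overlap and 8ND 3 was the lowest 8ND library. Their edgeR adjusted p was 0.09 for Saa3 and 0.22 for Lcn2. Lcn2 is also a neutrophil gene, and of 12 tested neutrophil markers 3 were higher and 1 lower at an unadjusted p under 0.05. Mmp9, a neutrophil protease, was at 0.701, 0.705, 1.30 and 0.541 CPM in 0ND and at 4.01, 1.59, 1.503, 2.94 and 2.47 CPM in 8ND, while Ly6g, the surface marker of mouse neutrophils, was at 8.48, 17.1, 13.02 and 8.55 CPM in 0ND and at 7.33, 4.36, 9.55, 2.94 and 2.88 CPM in 8ND. The markers thus did not all lie on one side, and their part in Lcn2 was not tested. Of 39 interferon response genes, 0 were higher and 1 lower at an unadjusted p under 0.05, with a median of -0.04.

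Lists of epithelial repair and barrier differed from each other. Of 26 fetal and regenerative genes, 9 were higher at an unadjusted p under 0.05 (against 5.68% of all genes) and 0 lower (against 4.23%). Their median log2 fold change was 0.32. Of 20 keratin and desmosome genes, 4 were higher and 1 lower, with a median of 0.13. Of 21 tight junction genes, 1 was higher and 2 lower, 0 without overlap, with a median of -0.05. Krt14, a keratin of the basal layer of stratified epithelia, was at 0.319, 0.529, 0.947 and 0.108 CPM in 0ND and at 11.5, 6.26, 1.503, 2.14 and 1.03 CPM in 8ND (edgeR adjusted p = 0.11). The 8ND libraries spread more than 10-fold around a group mean of 4.48 CPM, with 8ND 1 the highest and 8ND 5 the lowest. Thbs1, a matrix glycoprotein induced by TGF-beta, was at 52.0, 35.8, 65.5 and 58.8 CPM in 0ND and at 132, 101, 95.4, 75.5 and 91.4 CPM in 8ND, without overlap (edgeR adjusted p = 0.13). Ccn2, a matrix-associated target of TGF-beta and YAP, was at 17.8, 15.9, 21.1 and 14.3 CPM in 0ND and at 25.03, 25.3, 29.8, 29.1 and 26.6 CPM in 8ND, again without overlap. The summed fibroblast and matrix markers were higher in every 8ND library too when scaled to total gene counts alone, but not with the TMM factors. The score of that list overlapped, from -0.18 to 0.11 in 0ND and from -0.06 to 0.31 in 8ND. The part of these markers in Thbs1 and Ccn2 was not tested.

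Among the highest fold differences without overlap was Zfp469, annotated as a long noncoding RNA in the gene models used. It was at 5.35, 4.23, 3.67 and 3.25 CPM in 0ND and at 20.5, 46.0, 7.94, 15.5 and 15.5 CPM in 8ND (edgeR adjusted p = 0.075), highest in 8ND 2. Lgi2, a secreted leucine-rich protein, was at 5.93, 5.996, 7.58 and 5.09 CPM in 0ND and at 18.5, 26.4, 15.7, 19.2 and 19.5 CPM in 8ND (edgeR adjusted p = 0.13), with 8ND 3 in the range of the rest. Between the doses, 0 of 83 ribosomal protein genes and 0 of 88 nuclear respiratory chain genes were called or had an unadjusted p under 0.05. These classes varied among the 8ND libraries instead. Below the range of the 0ND libraries were 1, 65, 3, 45 and 1 of the 83 ribosomal protein genes in 8ND 1 to 5, and 6, 56, 4, 46 and 1 of the 88 respiratory chain genes, so 8ND 2 and 8ND 4 were low in both classes. Above that range were 13, 2, 44, 4 and 27 of the 88 respiratory chain genes, most of all in 8ND 3.

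The overall spread was similar at both doses. The biological coefficient of variation, estimated by edgeR within each group, was 0.239 in 0ND and 0.257 in 8ND, and 0.237 in 8ND without 8ND 3. Over 10587 genes with a mean of at least 10 CPM, the median SD of log2 CPM was 0.201 in 0ND and 0.206 in 8ND, and it was larger in 8ND for 51.3% of them. An SD above 1 was found for 137 genes in 8ND and 125 in 0ND. Of these 137 genes, 46 were highest and 44 lowest in 8ND 3, against 22.8 and 21.4% of the 10587 genes. Other libraries were not far behind, with 35 highest in 8ND 1, 33 highest in 8ND 4 and 38 lowest in 8ND 2.

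The 10 genes with the largest SD over 8ND fell into sets by which library stood apart. For Spock2, Slc30a2, Tex15, Erich3 and Pnliprp1 it was 8ND 3, the lowest of all 9 libraries or nearly so. Spock2, a proteoglycan of the matrix, was at 40.3, 16.6, 34.9 and 11.2 CPM in 0ND and at 648, 334, 8.16, 115 and 200.1 CPM in 8ND. Slc30a2, a zinc carrier, was at 3.70, 0.176, 3.91 and 0.433 CPM in 0ND and at 71.6, 46.1, 0.215, 18.7 and 27.6 CPM in 8ND. The other 4 8ND libraries were above all 0ND libraries for each of the 5 genes, and the mean of Spock2 in 0P was 1525 CPM. Pnliprp1, a lipase-related protein, had the largest SD, 3.26 on the log2 scale, with its lowest level, 0.107 CPM, in 8ND 3 and its highest, 131 CPM, in 8ND 1.

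The remaining 5 genes followed other libraries. Hoxd13, which specifies the most distal gut, was at 23.1, 66.7, 100.4 and 67.8 CPM in 0ND and at 43.1, 0, 5.37, 1.07 and 27.3 CPM in 8ND, with 0 reads in 8ND 2, which allows up to 0.238 CPM (3 counts, counting error only). Atp12a, the distal colon proton pump gene described above, was also lowest in 8ND 4 and 8ND 2. Mptx2, a pentraxin of Paneth cells, was at 0.0637, 0.176, 13.3 and 3.68 CPM in 0ND and at 0.138, 10.9, 90.6, 2.67 and 2.05 CPM in 8ND, so that the groups overlapped and 8ND 3 was the highest.

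Cwc22, a splicing factor gene with copies whose number varies between mouse strains, was at 32.5, 314, 625 and 329 CPM in 0ND and at 1849, 30.3, 1447, 24.8 and 337 CPM in 8ND. The 9 libraries fell into low, middle and high levels that did not follow the dose. The same-numbered dysplasia libraries had like levels of this gene, 48.6, 355, 611 and 431 CPM in 0P 1 to 4 and 2298, 35.7, 1054, 54.2 and 379 CPM in 8P 1 to 5. The labels did not say whether libraries of the same number and diet came from 1 mouse. Ifit1bl1, one of several close interferon-induced copies, and Srd5a2, a steroid reductase, each had 0 reads in 8ND 5 only (up to 0.308 CPM), against 5.61 to 43.6 CPM and 10.1 to 19.96 CPM in the other 8ND libraries. None of the 10 genes passed the test between the doses, with log2 fold differences from -2.05 for Hoxd13 to 3.85 for Slc30a2. Without 8ND 3, 4 of them passed, namely Spock2, Slc30a2, Erich3 and Tex15. These 4 were picked for a spread in which 8ND 3 stood apart, so passing without that library follows in part from the choice. It is no separate support for a difference between the doses.

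**Figure D5:**
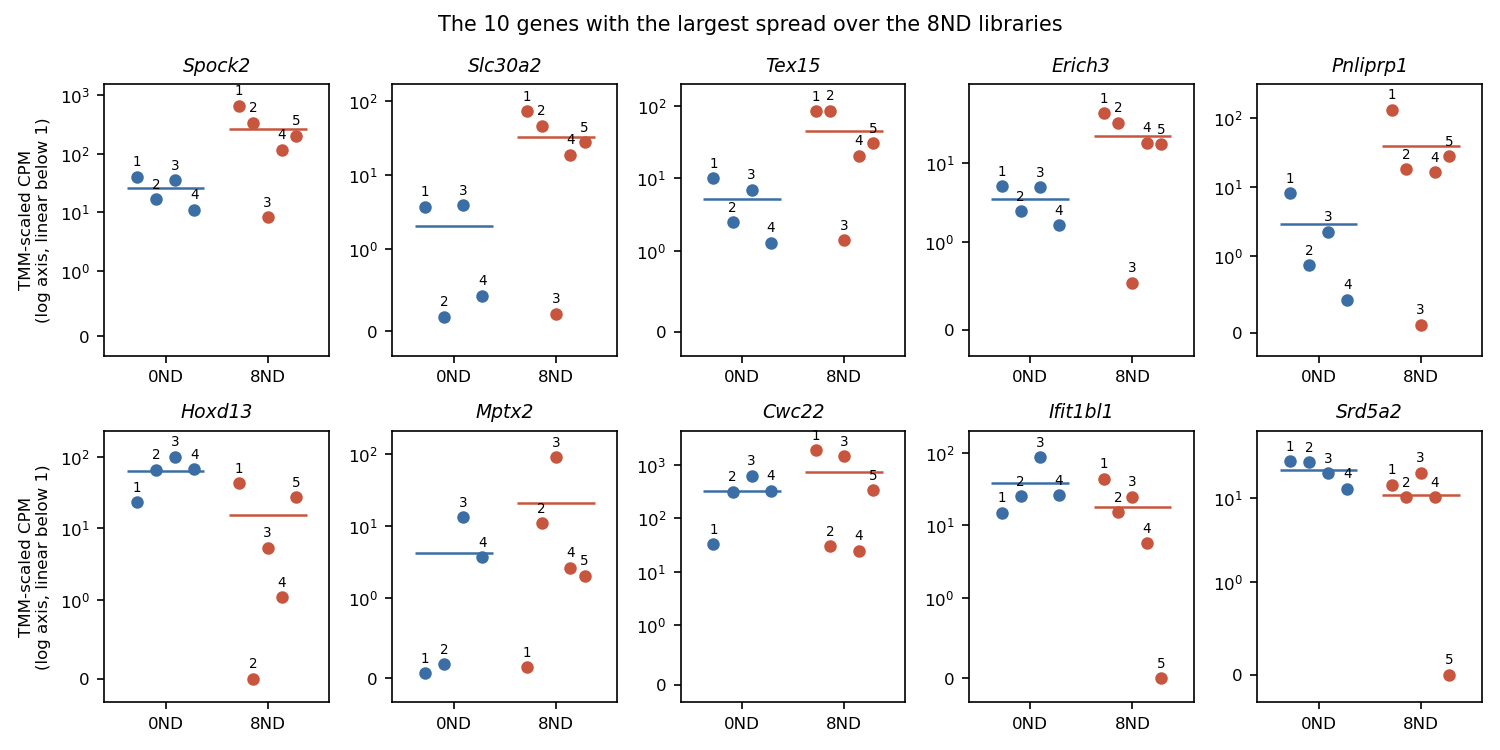
TMM-scaled CPM of the 10 genes with the largest SD of log2 CPM over the 8ND libraries, in each 0ND library (blue) and 8ND library (red), numbered by library, on axes that are logarithmic above 1 CPM and linear below it, with a line at each group's mean. In the upper row 8ND 3 lies below the 0ND libraries or at their low end while the other 8ND libraries lie above them, and in the lower row other libraries stand apart, such as 8ND 2 at 0 for Hoxd13 and 8ND 5 at 0 for Ifit1bl1 and Srd5a2.

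The same dose contrast in polypoid dysplasia was set beside that in non-dysplastic epithelium by an interaction test. It called 0 of 20787 genes (0%) with edgeR, 2163 (10.4%) at an unadjusted p under 0.05, 82 genes past the adjusted threshold with DESeq2 and 0 with limma-voom. This fit treated the non-dysplastic and dysplasia libraries as independent. With the library number within each diet as a block, an alternative chosen after the data were seen, edgeR also called 0 genes, and 1803 had an unadjusted p under 0.05. For Cers3 the log2 fold change was 0.12 in dysplasia against 2.91 in non-dysplastic epithelium, with an edgeR adjusted p of 0.22 for the difference. For Slc37a2 it was -0.34 against -2.28, with the same adjusted p of 0.22 from edgeR. For Per3 it was -0.48 against -1.31, with an edgeR adjusted p of 0.37. The list medians in dysplasia were -0.09 for the clock, -0.06 for the ATF4 list, -0.22 for cholesterol and fatty acid synthesis, -0.08 for the Wnt targets and -0.21 for xenobiotic and bile acid handling.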

How the data were processed

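RNA-Seq gene counts of 18 libraries were used as deposited, 1 raw count table per library. Per the submitters' processing notes, the authors used Bowtie, HTSeq and the mm10 build; their versions and the strand setting of the counting were not stated in the labels or methods, so overlapping and antisense genes cannot be told apart. Rows that name no gene were left out: reads with no feature were 25.9 to 39.0% of all rows' counts in the 9 non-dysplastic libraries, reads that did not map uniquely 41.0 to 62.2% and ambiguous reads 0.220 to 0.350%. Differential expression was tested with edgeR 4.0.16 in R 4.3.3, by the quasi-likelihood F test with robust fitting, TMM scaling, filterByExpr at a minimum count of 10, a mean per group over all 18 libraries, and Benjamini-Hochberg adjustment over all tested genes with a threshold of 0.05. CPM are scaled by TMM, except for the summed cell type markers, which are scaled to total gene counts alone. DESeq2 1.42.0 and limma 3.58.1 (voom) were alternatives, with RLE size factors, library size alone, no and stricter filters, non-dysplastic libraries alone, a replicate block, a fit without robust estimation, and libraries left out. Single measures were compared by exact two-sided permutation tests. On counts simulated for the 8ND and 0ND comparison over 20478 genes, 46% of 100 genes changed by 1 and 84% of 100 genes changed by 2 on the log2 scale were recovered, and 5.11% of 137 calls were false. Named genes were all called genes, the 3 members of each of 51 lists with the smallest p, the 6 highest and 6 lowest fold changes among genes without overlap at p under 0.01 and a mean of at least 10 CPM, and the 10 genes with the largest SD over 8ND. The comparison, the gene lists and these rules were chosen with earlier results of these data known. Promoter sequences came from RefSeq (GRCm38.p6).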

Additional observations from a re-analysis of the deposited data

Results flagged for a closer look

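In groups of 4 or 5 libraries, 14 of 212 sets of values had 1 library far from the others, by the gap to the nearest library over the whole range, where chance alone gives about 1 in 20. In 0ND, the lowest library of Asns was at 8.45 CPM, next to 11.5 CPM, and the lowest of Aldh1l2 at 1.95 CPM, next to 3.35 CPM. Both were 0ND 4. The highest 0ND library was at 442 CPM for Slc20a1 (0ND 4), 1.78 CPM for Slc4a11 (0ND 3), 2.87 CPM for Msi1 (0ND 1) and 5899 CPM for Muc2 (0ND 1), next to 213, 0.765, 1.89 and 3725 CPM. In 8ND, the highest library was at 38.3 CPM for Pnliprp2 and 11.3 CPM for Avil, next to 15.9 and 5.65 CPM, and 8ND 1 was the highest for both. The summed B and plasma cell markers were highest at 5288 CPM in 0ND, next to 3349 CPM, and at 10202 CPM in 8ND 3, next to 5376 CPM. The summed smooth muscle markers reached 3231 CPM in 8ND, next to 2305 CPM, the summed endothelial markers 391 CPM in 0ND, next to 295 CPM, and the summed enteric glia and neuron markers went down to 56.2 CPM in 8ND, next to 88.1 CPM. The circadian clock score was lowest in 8ND 3 at -0.26, next to -0.08.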

How the results depend on the processing

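The count of called genes depended strongly on the tool and the libraries. Against 10 genes (6 higher, 4 lower), DESeq2 called 316 (228 higher, 88 lower), limma-voom 4 (2 and 2), the fit with no filter 41 (28 and 13), and the 9 non-dysplastic libraries alone 15, 12 of them higher. All 10 genes were among those called by DESeq2 and with no filter, and Cers3, Myof, Per3 and Phldb2 in the non-dysplastic libraries alone. Leaving out 1 library gave 2 to 157 calls, 1 to 134 higher and 1 to 23 lower, and leaving out both 8ND 1 and 8ND 2 gave 0 (0 higher, 0 lower) with edgeR, where 1437 genes had an unadjusted p under 0.05. The interaction test called 82 genes with DESeq2, 1 with no filter, and 0 to 26 with 1 library left out. With the replicate number as a block, 28 genes were called (20 higher, 8 lower), but same-numbered 0ND and 8ND libraries deviated in opposite directions (correlations of -0.21 to -0.05), so the numbers do not pair the libraries. Same-numbered non-dysplastic and dysplasia libraries of 1 diet correlated at -0.08 to 0.27, and 4 of the 9 non-dysplastic libraries correlated best with their own number, so pairing there was not shown for all libraries. The interaction with the number within each diet as a replicate block called 0 genes. The medians of the 8 lists recomputed (clock, ATF4, cholesterol, xenobiotic, ion transport, Wnt, MAPK and Paneth-like) had the same sign in all alternatives run. With 1 library left out the clock median was -0.39 to -0.26, the MAPK median 0.31 to 0.58 and the Paneth-like median 1.10 to 2.56, and the last was 0.63 without both 8ND 1 and 8ND 2. The causes were not tested. Genes at a few reads, such as Cers3 in 0ND, are limited by depth.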
